A study of Mus musculus with 6 samples.

Results

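The antioxidant and glutathione genes examined here are a set of 40 genes out of 21911 protein-coding genes of the mouse annotation, and they were followed through 6 lists of H3K4me3 peaks. The genes were chosen by name for their known function, with no measured value in the rule, although earlier results of these data were known. A peak no further than 1 kb from any annotated transcript start of a gene counted as marking it. Its strength was the percentile of the strongest such peak among all peaks of the same list, and its width was the length of that peak. H3K4me3 marked 38 of the 40 genes in every list, and the same 2 genes, Gpx3 and Gpx7, had no peak at a start in any list.

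H3K4me3, the trimethylated form of histone H3 at lysine 4, is carried by nucleosomes around the starts of active and poised genes. Oxidants are handled by layered enzymes: superoxide dismutases make hydrogen peroxide, and catalase, peroxiredoxins and glutathione peroxidases remove it, with reducing power from thioredoxin and glutathione. Many of these genes are transcribed under the factor NRF2, which binds antioxidant response elements and is held down by KEAP1 when oxidants are low. Striatal neurons are lost in Huntington disease, and many of these genes are active in most cell types.

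The cells were STHdh cells, conditionally immortalised striatal progenitors from C57BL/6 mice, kept for 24 h in serum-free medium. Q7SST denotes wild type (STHdh7) cells with vehicle, and Q111SST denotes mutant (STHdhQ111) cells with vehicle, whose huntingtin gene carries an expanded glutamine tract. The remaining 4 lists are from mutant cells exposed to 10 uM cyproheptadine or meclizine, which are antihistamines, loxapine, an antipsychotic, or diacylglycerol kinase inhibitor II, here called DKI. Each genotype is represented by an immortalised line, so the genotype cannot be told apart from other differences between the lines.

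There was 1 list per condition, so no replicate spread exists and no test between lists was made. Lists held between 30758 peaks (DKI) and 45564 (Loxapine), and the reads behind each list are unknown. In bulk chromatin, the number of cells that carry the mark and its density per cell cannot be told apart. Of 9 neural progenitor markers between 5 and 8 were marked per list, with Vim, Sox9, Dlx1 and Dlx2 in all 6. Of 7 striatal neuron markers between 0 and 3 were marked, and Drd1, Drd2 and Rbfox3 were marked in none. Between 3 and 4 of 5 fibroblast and mesenchyme markers were marked, and 0 of 5 oligodendrocyte markers. Marked astrocyte markers numbered between 2 and 3 of 5, microglia markers between 1 and 2 of 5, endothelial markers between 0 and 1 of 4, and hepatocyte markers between 0 and 1 of 4. The part of cell identity in the results was not tested.

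The first question was whether the system as a whole carried the mark. The 38 marked genes made up 95% of the set in each list. Among all protein-coding genes the marked share was 58.4% in Q111SST and 59.9% in Q7SST, and 55.8% with DKI, 58.6% with Meclizine, 58.1% with Loxapine and 55.4% with Cyproheptadine. Of all genes, 9.52% were marked in some lists and not in others, against 0 of the 40.

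Where marked, the genes were close to typical promoters in strength. Their median percentile was 82.2 in Q7SST, against 80.4 for all marked genes, and 85.1 in Q111SST, against 82.6. It was 77.7 with DKI, 81.7 with Meclizine, 86.6 with Loxapine and 78.1 with Cyproheptadine, against 76.3, 80.3, 83.0 and 79.5 for all marked genes. Between 18 and 22 of the 38 stood above the median of all marked genes, so the set straddled the middle. The plot of strength by list shows the genes spread along the scale, from 39.4 to 99.9 in Q111SST. The range of a gene's percentile over the 6 lists had a median of 14.1 points in the set and 14.4 points over the 11713 genes marked in all lists.

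**Figure D1:**
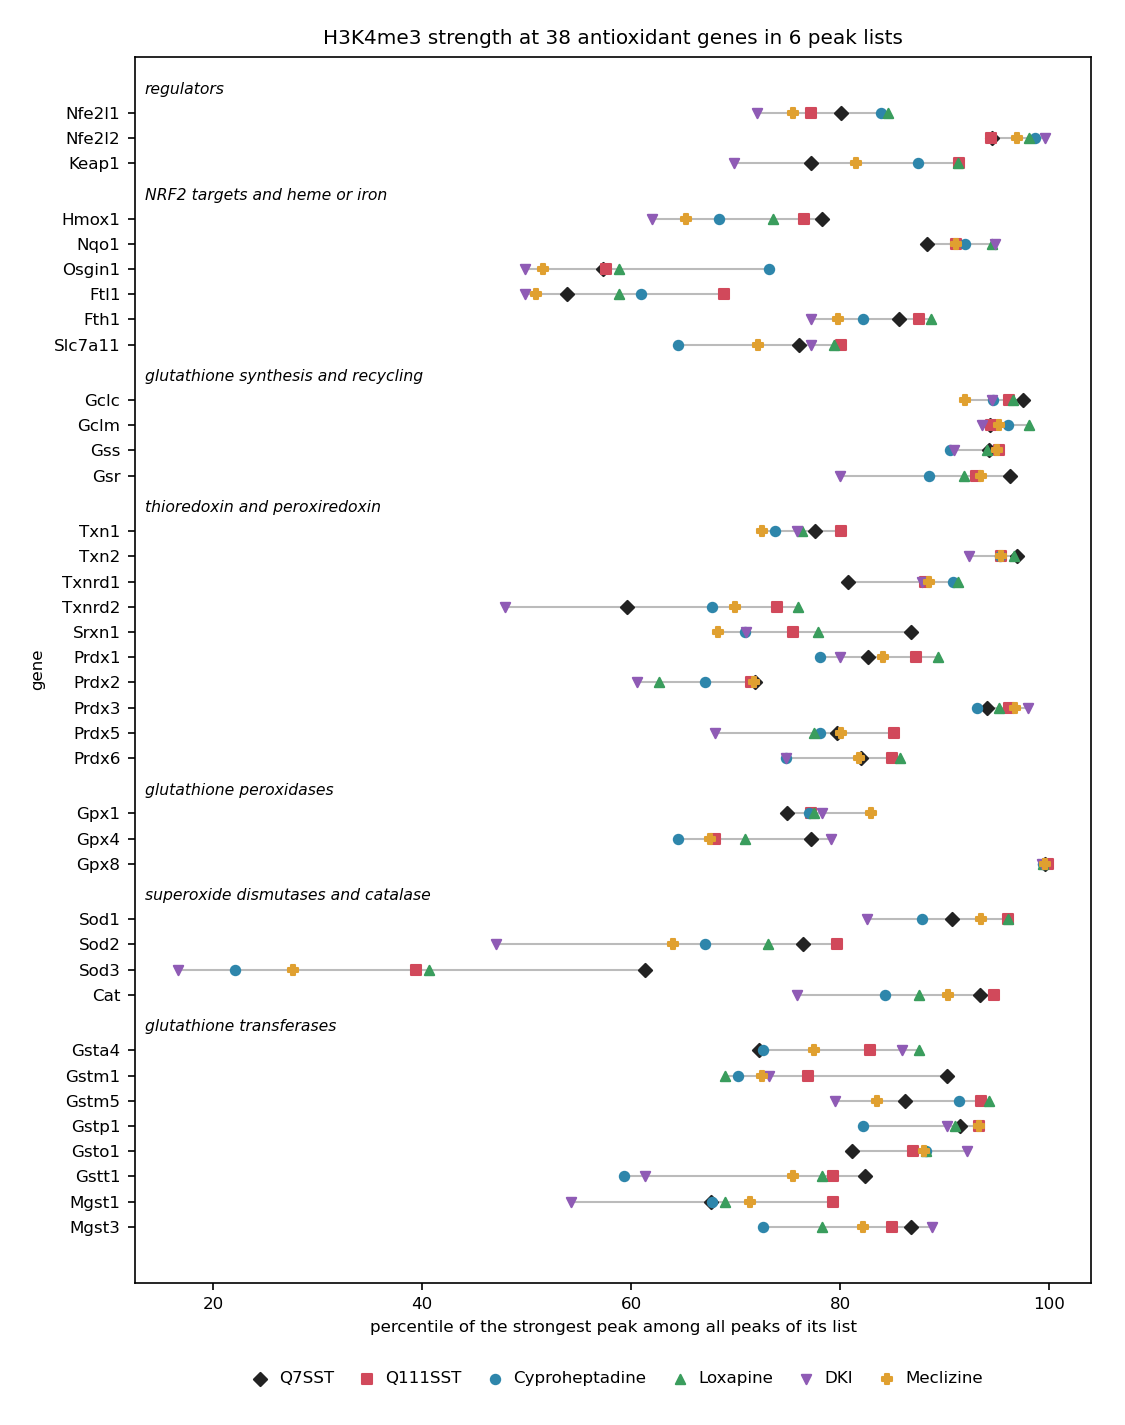
Strength of H3K4me3 at the 38 marked genes, grouped by role. The horizontal axis is the percentile of the gene's strongest peak among all peaks of its list, each symbol is 1 list and the grey line spans the lowest to the highest list. Gpx8 lies above 99 in every list, and Sod3 spans 16.7 to 61.4.

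The promoter sequences were searched for the core of the antioxidant response element, TGACNNNGC on either strand, because this is the site through which NRF2 acts. RefSeq promoter sequences on GRCm38.p6, running 250 bases before to 50 after a start, matched 34 of the 40 genes. No sequence was matched for Prdx6, Gsta4, Sod3, Gsr, Hmox1 and Gclc. In the window nearest the start of the gene record, 7 genes (20.6%) held the core, against 13.3% of all coding genes with a sequence. Over any window the count was 8, with Txnrd1 added, in 8 of 46 windows (17.4%) against 12.4% of all promoter windows. The 8 genes were Nfe2l2, Srxn1, Gstm5, Gclm, Prdx1, Mgst1, Txnrd1 and Sod1. A match describes the letters and does not show a bound site. The following stretches show 7 of these matches in capitals, each read along the strand of the gene, so that a match on the other strand appears as its reverse complement.
Prdx1, chr4:116685430-116685510, plus strand: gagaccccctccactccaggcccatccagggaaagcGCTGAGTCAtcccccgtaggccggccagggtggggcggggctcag
Gclm, chr3:122245387-122245467, plus strand: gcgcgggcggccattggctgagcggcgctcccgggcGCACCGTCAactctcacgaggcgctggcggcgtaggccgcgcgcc
Txnrd1, chr10:82859078-82859158, plus strand: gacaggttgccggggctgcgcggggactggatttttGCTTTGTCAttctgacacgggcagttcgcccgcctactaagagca
Sod1, chr16:90220670-90220750, plus strand: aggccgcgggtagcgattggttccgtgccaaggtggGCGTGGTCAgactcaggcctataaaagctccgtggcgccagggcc
Nfe2l2, chr2:75704885-75704913, minus strand: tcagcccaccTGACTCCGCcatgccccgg
Gstm5, chr3:107895802-107895830, plus strand: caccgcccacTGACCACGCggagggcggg
Mgst1, chr6:138140461-138140489, plus strand: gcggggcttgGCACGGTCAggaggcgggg

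Peaks covered these letters unevenly. The matches at Txnrd1, Sod1, Gstm5, Mgst1 and Srxn1 lay under a peak in all 6 lists. Positions of matches are counted from the RefSeq start of the promoter window, which can differ from the start used for peak distances. The Prdx1 match, TGACTCAGC at -133, lay under a peak in 3 lists, Q7SST, Q111SST and Meclizine. The same letters hold an overlapping AP-1 site, the sequence bound by Jun and Fos, TGAGTCA, at -131. The Nfe2l2 match, TGACTCCGC at -240, was covered in 5 lists and not with DKI, and the Gclm match, TGACGGTGC at -134, in 0. AP-1 sites, TGANTCA, were found in 5 of the 34 genes (14.7%), namely Srxn1, Gstm5, Prdx1, Osgin1 and Gstp1, against 6.99% of all coding genes with a sequence. The window reached the Q111SST peak for 28 of the 32 marked genes with a sequence.

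In Q111SST the 3 regulators had the widest peaks of the 7 roles, with a median of 2809 bp. Nfe2l2, which encodes NRF2, had percentiles of 94.5 in Q111SST and 94.5 in Q7SST, and 99.6 with DKI, 96.9 with Meclizine, 98.1 with Loxapine and 98.7 with Cyproheptadine. The vehicle lists were thus the lowest of the 6. The range at Nfe2l2 was 5.10 points, below the median of 14.4 points over all genes marked in every list. Its Q111SST peak (chromosome 2, 75701904 to 75705031) covered the start, untranslated and coding exon and intron. Widths were 3128 bp in Q111SST and 2867 bp in Q7SST, and 2131 bp with DKI, 2830 bp with Meclizine, 2948 bp with Loxapine and 2834 bp with Cyproheptadine. DKI therefore gave the highest rank and the narrowest peak, which began 130 bp downstream of the start, where the other 5 peaks began between 324 and 392 bp upstream.

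Keap1, the adaptor that sends NRF2 for degradation, had percentiles of 91.4 in Q111SST and 77.2 in Q7SST, and 69.8 with DKI, 81.5 with Meclizine, 91.3 with Loxapine and 87.5 with Cyproheptadine. Q7SST and DKI were both over 10 points below Q111SST, whose peak lay on chromosome 9, 21237512 to 21239491. With Cyproheptadine the peak was 1248 bp wide, against 1978 to 2137 bp in the other lists, and began 585 bp downstream of the start. Nfe2l1 encodes NRF1, a related factor known for driving proteasome genes. Its percentiles were 77.3 in Q111SST and 80.1 in Q7SST, and 72.0 with DKI, 75.5 with Meclizine, 84.6 with Loxapine and 83.9 with Cyproheptadine. The Q111SST peak (chromosome 11, 96828192 to 96831000) was 2809 bp wide. With Cyproheptadine it was replaced by separate peaks of 735 and 1224 bp on either side of the start, and 2752 bp was covered when peaks within 1 kb were merged. With Cyproheptadine no called peak lay over the first start of Keap1 or Nfe2l1 that the other lists covered, although another Nfe2l1 peak covered a later start.

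Glutathione synthesis and recycling had the highest median percentile of the 7 roles in each list, 94.8 over its 4 genes in Q111SST. Glutamate cysteine ligase makes the first, limiting bond of glutathione, and Gclc and Gclm encode its catalytic and modifier subunits. Gclc percentiles were 96.2 in Q111SST and 97.5 in Q7SST, and 94.6 with DKI, 92.0 with Meclizine, 96.6 with Loxapine and 94.7 with Cyproheptadine. Gclm percentiles were 94.5, 94.4, 93.6, 95.2, 98.1 and 96.0 in the same order. Gss, glutathione synthetase, ran from 90.5 with Cyproheptadine to 95.2 in Q111SST. Gsr, which regenerates reduced glutathione, ran from 80.0 with DKI to 96.3 in Q7SST, and DKI was the lowest of the lists with Cyproheptadine next at 88.5. Apart from these values of Gsr, every value of these 4 genes was above percentile 90.

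At Gclc and Gclm the strong peaks lay beside the start rather than over it. The Gclc peak (chromosome 9, 77754960 to 77756540 in Q111SST) began between 413 and 458 bp downstream of the start in the 6 lists. It covered no annotated start in any list, and no exon in Q111SST, Loxapine and DKI, whereas in the other 3 lists it reached a coding exon. This exon contrast turned on the exact peak edge, 423 bp downstream with Cyproheptadine and 425 bp in Q111SST. The Gclm peak (chromosome 3, 122246157 to 122247765 in Q111SST) began between 597 and 725 bp downstream, over no exon in any list. A short second Gclm peak lay upstream in 5 lists, from -545 to -254 bp in Q111SST, where it was 292 bp wide with a percentile of 53.9, and was missing with Cyproheptadine. The Gclm promoter window was 79.7% G and C, the highest of the 34 genes with a sequence, and the part of base composition in the gap was not tested. Of all genes marked in the 6 lists, 5.61% had a strongest peak over no annotated start in any list, against 2 of the 38.

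**Figure D2:**
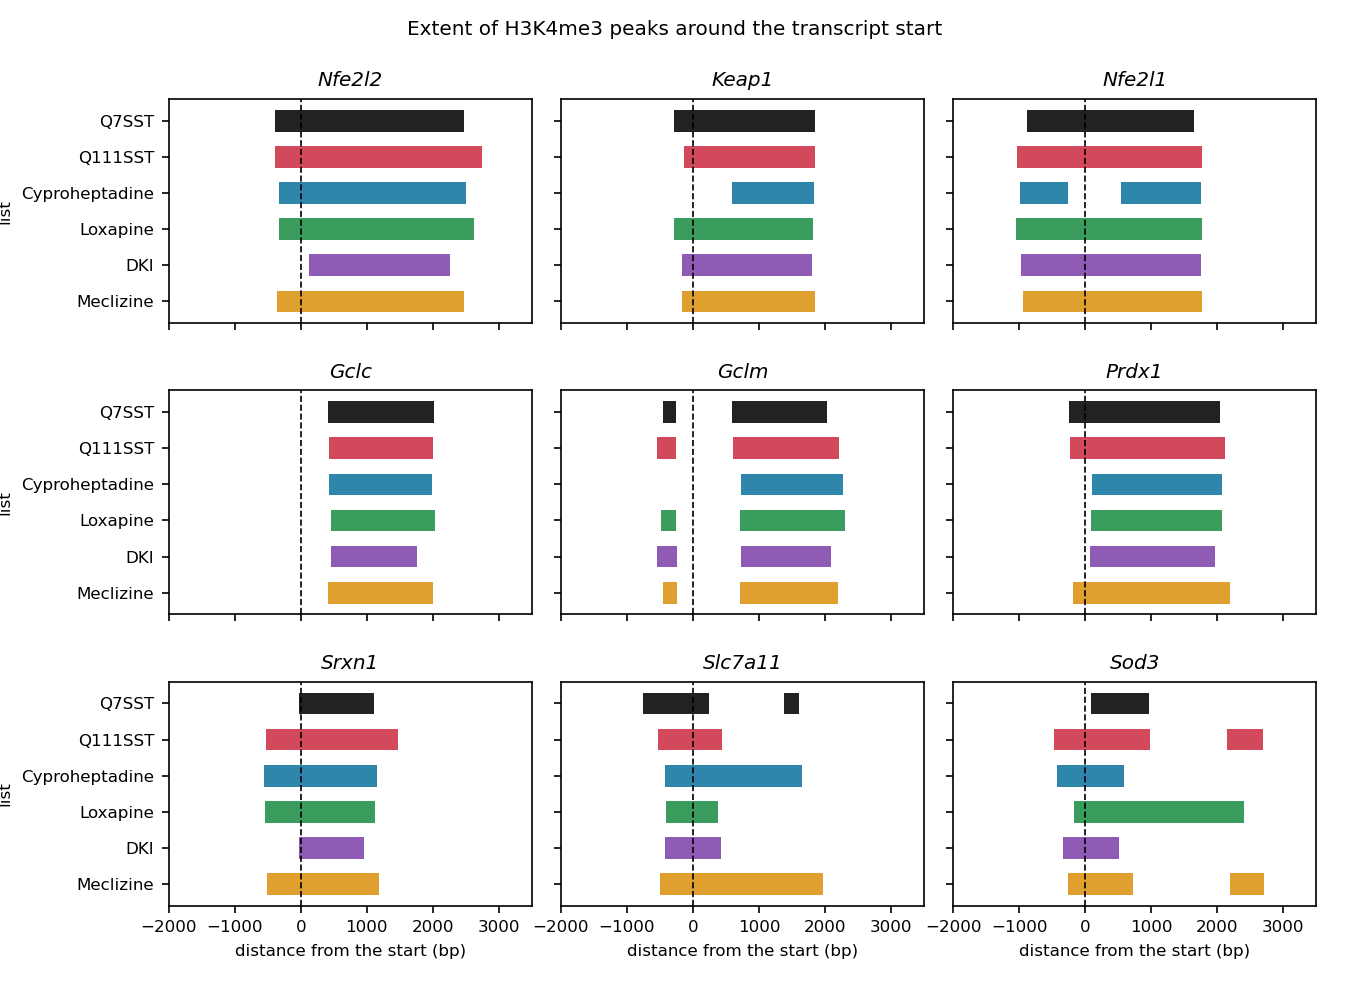
Extent of called peaks around the start of 9 genes. The horizontal axis is the distance in bp from the start (dashed line), with transcription to the right, and each row is 1 list. The start is the annotated one nearest the gene's 5-prime end that the Q111SST peak covers, or the 5-prime end itself at Gclc and Gclm. The start is bare in every list at Gclc and Gclm, with Cyproheptadine at Keap1 and Nfe2l1, with DKI at Nfe2l2, in Q7SST at Sod3, and with 3 compounds at Prdx1.

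Of the strongest peaks in each list, those of 2 to 4 of the 38 genes covered no annotated start. These were Gclc and Gclm in all lists, with Sod3 added in Q7SST and Nfe2l1 and Keap1 added with Cyproheptadine. The share over all marked genes was 13.3% in Q7SST, 13.7% in Q111SST and 12.2% with Meclizine, and 20.5% with Cyproheptadine, 19.0% with Loxapine and 17.5% with DKI. The last 3 lists are also those in which the Prdx1 peak began downstream of the first start. In Q111SST the peak of 31 of 36 genes reached further downstream than upstream, against 81.0% of all genes. Slc7a11, Txnrd2, Gsta4, Gstp1 and Gstt1 reached further upstream.

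Of the classical NRF2 targets and the genes of heme and iron, Nqo1 was the most strongly marked. Nqo1 encodes a quinone reductase and had percentiles of 91.1 in Q111SST and 88.3 in Q7SST, and 94.9 with DKI, 91.1 with Meclizine, 94.6 with Loxapine and 91.9 with Cyproheptadine. Its peak was 1391 bp wide in Q7SST and 2038 bp in Q111SST, and Q7SST was the lowest list in both measures. Hmox1, heme oxygenase, had percentiles of 76.6 in Q111SST and 78.3 in Q7SST, and 62.0 with DKI, 65.3 with Meclizine, 73.6 with Loxapine and 68.4 with Cyproheptadine. Its width went the other way, with 1784 bp in Q7SST and 2310 to 2538 bp in the 5 mutant lists.

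Ftl1 and Fth1 encode the light and heavy chains of ferritin, which stores iron. Ftl1 had 1 of the 3 widest peaks of the set in Q111SST, 3027 bp (chromosome 7, 45457735 to 45460761), and widths of 2666 to 3332 bp over the lists. Its strength was low for its width, with percentiles of 68.9 in Q111SST and 53.9 in Q7SST, and 49.9 with DKI, 50.9 with Meclizine, 58.8 with Loxapine and 61.0 with Cyproheptadine. Q111SST was the highest list. Fth1 ran from 77.2 with DKI to 88.8 with Loxapine.

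Slc7a11 encodes the cystine and glutamate exchanger that feeds glutathione synthesis. Its peak was 972 bp wide in Q111SST and 1006 bp in Q7SST, and 847 bp with DKI, 2470 bp with Meclizine, 792 bp with Loxapine and 2084 bp with Cyproheptadine. The wide peaks kept a similar upstream edge and ran to 1657 bp (Cyproheptadine) and 1967 bp (Meclizine) downstream of the start, against 241 to 439 bp in the other lists. A separate peak of 221 bp lay 1379 bp downstream in Q7SST. Percentiles were 80.1, 76.0, 77.2, 72.2, 79.4 and 64.5 in that order, so the wide peaks were the lowest in rank. Osgin1, an oxidative stress response gene, had percentiles of 57.6 in Q111SST and 57.4 in Q7SST, and 49.9 with DKI, 51.6 with Meclizine, 58.8 with Loxapine and 73.2 with Cyproheptadine. Osgin1 ranged over 23.4 points. Its cyproheptadine peak was the strongest in rank and the narrowest, at 413 bp, against 667 bp in Q7SST and 1234 bp in Q111SST (chromosome 8, 119436809 to 119438042).

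The thioredoxin and peroxiredoxin genes held the widest peak of the set in all lists but DKI and Meclizine, where Ftl1 was wider. Txnrd1, cytosolic thioredoxin reductase, had widths of 3199 bp in Q111SST and 3125 bp in Q7SST, and 2981 bp with DKI, 3080 bp with Meclizine, 3374 bp with Loxapine and 3118 bp with Cyproheptadine. Its Q111SST peak (chromosome 10, 82858602 to 82861800) lay 24651 bp inside the gene record, at an internal start. Txnrd1 percentiles were 80.8 in Q7SST and 87.9 to 91.3 in the 5 mutant lists. In Q111SST 5 of 38 genes had their strongest peak over 1 kb from the 5-prime end of the gene record, against 11.0% of all marked genes, the others being Osgin1, Fth1, Gpx4 and Gsta4.

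Txnrd2, the mitochondrial reductase, had percentiles of 73.9 in Q111SST and 59.6 in Q7SST, and 48.0 with DKI, 69.9 with Meclizine, 76.0 with Loxapine and 67.8 with Cyproheptadine. Its Q111SST peak (chromosome 16, 18424156 to 18426915) was 2760 bp wide and reached 2228 bp upstream. The other 5 lists gave 1444 to 1763 bp and 947 to 1173 bp upstream. A strongest peak that also covers a start of another gene cannot be assigned to either gene. Such sharing was found for 3 of the 38 genes against 19.7% of all marked genes in Q111SST, among them Prdx2 with Rnaseh2a and Gm49661, and Prdx5 with Trmt112.

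Srxn1 encodes sulfiredoxin, which repairs overoxidised peroxiredoxins. Its percentiles were 75.5 in Q111SST and 86.8 in Q7SST, and 71.0 with DKI, 68.3 with Meclizine, 77.9 with Loxapine and 70.9 with Cyproheptadine. Widths were 1995, 1130, 989, 1695, 1655 and 1720 bp in that order. The peaks of Q7SST and DKI began 24 and 26 bp before the start and those of the other 4 lists 507 to 560 bp before it, so a strong and a weaker peak shared the same short form. The AP-1 sites of Srxn1 at -102 and -45 lay outside the short peaks.

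Prdx1, a cytosolic peroxiredoxin, had percentiles of 87.3 in Q111SST and 82.7 in Q7SST, and 80.0 with DKI, 84.1 with Meclizine, 89.4 with Loxapine and 78.1 with Cyproheptadine. Its peak began 181 to 240 bp upstream of the first start in Q7SST, Q111SST and Meclizine. It began 78 to 99 bp downstream with DKI, Loxapine and Cyproheptadine, still over later annotated starts. The mitochondrial Prdx3 was among the strongest, from 93.2 with Cyproheptadine to 98.0 with DKI, although its DKI peak was the narrowest at 995 bp, against 1667 bp in Q7SST and 1535 bp in Q111SST. Txn2, mitochondrial thioredoxin, stayed between 92.4 and 96.9, and Txn1, its cytosolic counterpart, between 72.6 and 80.1. Prdx2 ran from 60.6 to 71.9 and Prdx5 from 68.0 to 85.2, both lowest with DKI. By rank among marked promoters Prdx2 was lowest with Loxapine, 19.1 against 26.5 with DKI. Prdx6 ran from 74.8 with DKI and 74.9 with Cyproheptadine to 85.8 with Loxapine.

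**Figure D3:**
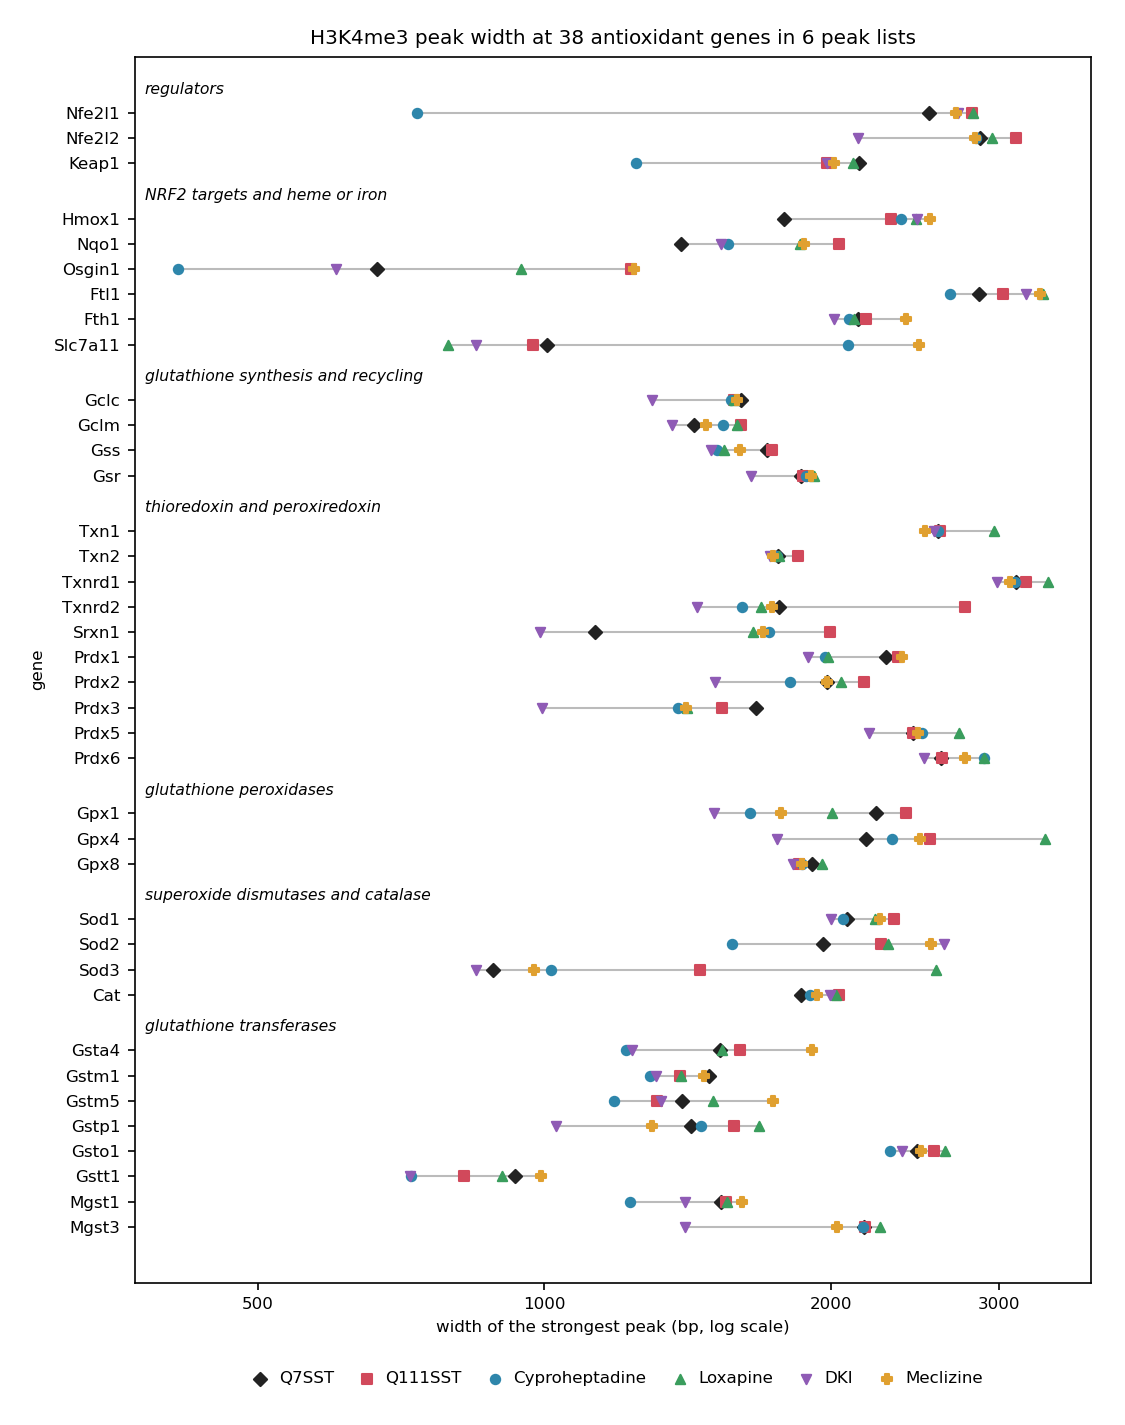
Width of the strongest H3K4me3 peak at the 38 marked genes, by role. The horizontal axis is in bp on a log scale, each symbol is 1 list and the grey line spans the narrowest to the widest list. Slc7a11, Nfe2l1, Osgin1 and Sod3 spread most, with Slc7a11 from 792 to 2470 bp. Nfe2l1 is narrow only with Cyproheptadine, where its peak is split.

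The glutathione peroxidases held the extremes of the set. Gpx8, an enzyme of the endoplasmic reticulum, had percentiles of 99.9 in Q111SST and 99.7 in Q7SST, and 99.3 with DKI, 99.7 with Meclizine, 99.5 with Loxapine and 99.5 with Cyproheptadine. It was the strongest of the set in all lists but DKI, where Nfe2l2 was higher, and its range of 0.601 points was the smallest. Its Q111SST peak (chromosome 13, 113044841 to 113046688) covered the start and first exon. Gpx7, its close relative in the same compartment (chromosome 4, 108400390 to 108406961), had its nearest peak in any list 17928 bp from a start and no peak over the gene. Gpx3, the secreted plasma form (chromosome 11, 54902453 to 54910377), had its nearest at 19282 bp. The nearest peaks of Gpx7 lay 32349 bp away in Q111SST and 43601 bp in Q7SST, and 18491 bp with DKI, 17928 bp with Meclizine, 53463 bp with Loxapine and 53462 bp with Cyproheptadine. Those of Gpx3 lay 19289, 34557, 19282, 19346, 19373 and 33410 bp away in the same order.

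CpG content, a correlate of H3K4me3 at promoters, was compared at these genes. The ratio of observed to expected CpG in the 300 bases of the promoter window was 0.852 at Gpx8, 0.702 at Gpx7 and 0.547 at Gpx3. Its median was 0.787 over coding genes marked in all 6 lists, 0.194 over those marked in none and 0.670 over the 34 genes of the set with a sequence. Of 1762 other genes within 0.05 of the Gpx7 ratio, 80.5% were marked in all lists and 9.53% in none. Of 1120 within 0.05 of the Gpx3 ratio, 64.1% were marked in all lists and 22.9% in none. Gpx7 was thus unmarked at a CpG ratio where few other genes were unmarked. The exon-free parts of the strongest and of an unmarked promoter are shown, with each CpG in capitals. They differ in length, with 10 CpG in 228 bases at Gpx8 and 5 in 168 bases at Gpx3.
Gpx8, chr13:113046411-113046638, minus strand: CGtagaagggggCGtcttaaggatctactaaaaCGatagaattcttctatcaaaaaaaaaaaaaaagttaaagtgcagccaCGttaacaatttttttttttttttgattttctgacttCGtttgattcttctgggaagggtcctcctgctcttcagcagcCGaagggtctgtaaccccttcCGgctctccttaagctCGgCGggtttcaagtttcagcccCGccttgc
Gpx3, chr11:54902604-54902771, plus strand: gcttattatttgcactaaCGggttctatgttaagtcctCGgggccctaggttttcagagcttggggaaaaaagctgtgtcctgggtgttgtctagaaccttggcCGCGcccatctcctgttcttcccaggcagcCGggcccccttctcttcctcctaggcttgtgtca

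Gpx4 removes lipid peroxides. Its percentiles were 68.0 in Q111SST and 77.2 in Q7SST, and 79.2 with DKI, 67.5 with Meclizine, 70.9 with Loxapine and 64.5 with Cyproheptadine. By percentile Gpx4 was the sole gene of the set over 10 points higher with DKI. By rank among marked promoters 7 were, against 19.0% of all genes, Gpx4 among them. The Gpx4 width was 3353 bp with Loxapine and 1753 bp with DKI. Gpx1, the main cytosolic form, ran from 74.9 in Q7SST to 83.0 with Meclizine.

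Superoxide dismutases and catalase turn superoxide into peroxide and remove it. Sod3, the extracellular enzyme, was the weakest marked gene of the set in all lists but Q7SST, where Ftl1, Osgin1 and Txnrd2 were lower. Its percentiles were 39.4 in Q111SST and 61.4 in Q7SST, and 16.7 with DKI, 27.6 with Meclizine, 40.6 with Loxapine and 22.0 with Cyproheptadine. Q7SST stood above all mutant lists. Its range of 44.7 points was the largest among percentiles of all peaks, but by rank among marked promoters it was 17.1 points, and Gstm1 had the largest, 49.1. Widths were 1456, 883, 847, 976, 2576 and 1016 bp in that order. The Q111SST peak (chromosome 5, 52363314 to 52364769) began 477 bp upstream, whereas the Q7SST peak began 84 bp downstream of the start. The wide loxapine peak ran to 2399 bp downstream, into a stretch where Q111SST and Meclizine each had a separate peak.

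Sod2, the mitochondrial manganese enzyme, had percentiles of 79.7 in Q111SST and 76.5 in Q7SST, and 47.0 with DKI, 64.0 with Meclizine, 73.1 with Loxapine and 67.1 with Cyproheptadine, a range of 32.7 points. DKI gave the lowest rank and the widest peak, 2625 bp against 2257 bp in Q111SST (chromosome 17, 13007474 to 13009730). Sod1, the cytosolic enzyme, ran from 82.6 with DKI to 96.1 in Q111SST, and Cat, catalase, from 75.8 with DKI to 94.8 in Q111SST.

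The glutathione transferases, which conjugate glutathione to electrophiles, were marked in full but mostly in the middle of the range. Gstm1 had percentiles of 76.9 in Q111SST and 90.2 in Q7SST, and 73.2 with DKI, 72.6 with Meclizine, 69.0 with Loxapine and 70.3 with Cyproheptadine, so Q7SST stood apart from the 5 mutant lists. Its peak was 1488 bp wide in Q7SST and 1387 bp in Q111SST (chromosome 3, 108017197 to 108018583). A second, weaker peak at an internal Gstm1 start was listed in the 5 mutant lists and not in Q7SST. Gstm1 and Gstm5 lie in a cluster of similar genes, and reads of 50 bp may not separate all copies.

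Mgst1, a microsomal transferase, had percentiles of 79.4 in Q111SST and 67.7 in Q7SST, and 54.3 with DKI, 71.4 with Meclizine, 69.0 with Loxapine and 67.8 with Cyproheptadine. Q111SST was the highest list and DKI the lowest, 25.1 points apart (Q111SST peak on chromosome 6, 138140091 to 138141642). Gstt1 had percentiles of 79.4, 82.4, 61.3, 75.5, 78.3 and 59.3 in the same order. Its peak was short, 932 bp in Q7SST and 823 bp in Q111SST (chromosome 10, 75797718 to 75798540). Gstm5 ran from 79.6 to 94.3 and was 1395 bp wide in Q7SST and 1313 bp in Q111SST. Gstp1 ran from 82.2 to 93.3, Gsto1 from 81.1 to 92.1, Gsta4 from 72.3 to 87.5 and Mgst3 from 72.6 to 88.8.

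The median width of the set lay above that of all marked genes in every list, a difference that was not tested. It was 2036.5 bp in Q111SST and 1858.5 bp in Q7SST, and 1590 bp with DKI, 1920 bp with Meclizine, 1993 bp with Loxapine and 1737.5 bp with Cyproheptadine. Over all marked genes it was 1795, 1709, 1461, 1672, 1720 and 1546 bp in the same order. Between 23 and 28 of the 38 genes were wider than the median of all marked genes. The widest list of a gene exceeded the narrowest 1.40-fold at the median of the set and 1.37-fold over all genes.

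Each list was then set against Q111SST. The 5 comparisons share that list and are not independent. No gene of the set gained or lost marking in any of them, 0 of 40 each. Over all genes 3.60% were gained and 2.08% lost in Q7SST, 0.269% and 2.88% with DKI, 1.02% and 0.799% with Meclizine, 1.01% and 1.24% with Loxapine, and 0.306% and 3.33% with Cyproheptadine. A change in strength was counted past 10 percentile points and a change in width past 1.5-fold. These are fixed sizes and not tests.

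For the wild-type line against the mutant line, 3 of 38 genes were stronger in Q7SST, against 8.85% of all genes, namely Srxn1, Sod3 and Gstm1. Keap1, Ftl1, Txnrd2, Gsta4 and Mgst1 were weaker, 5 of 38 against 13.0%. Wider peaks were found for 0 of 38 genes against 5.81%, and narrower ones for Osgin1, Txnrd2, Srxn1 and Sod3, 4 of 38 against 6.89%. The width ratios of Q7SST to Q111SST were 0.541 at Osgin1, 0.566 at Srxn1, 0.606 at Sod3, 0.639 at Txnrd2 and 0.683 at Nqo1, the lowest 5. The highest 5 were 1.13 at Gstt1, 1.09 at Prdx3, 1.08 at Keap1, 1.07 at Gstm1 and 1.06 at Gstm5. The median difference in strength was -1.89 points over the set and -1.04 points over all genes.

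The comparison of DKI with Q111SST came next. Of the 38 genes 16 were over 10 points weaker, against 38.8% of all genes, so the count is near the share of the whole list. They were Keap1, Hmox1, Ftl1, Fth1, Gsr, Txnrd2, Prdx2, Prdx5, Prdx6, Sod1, Sod2, Sod3, Cat, Gstm5, Gstt1 and Mgst1. Ftl1, Hmox1, Prdx2, Prdx6 and Sod3 fell short of 10 points both in lists of equal size and by rank among marked promoters, with Prdx2 at -1.99 and -0.50 and Sod3 at -3.71 and -4.20, and Fth1 fell short in lists of equal size. Gpx4 was stronger, 1 of 38 against 3.55%. The largest difference in percentile was at Sod2, -32.69 points, and by rank among marked promoters at Keap1, -35.47. Narrower peaks were found for 8 of 38 genes against 18.7%, namely Osgin1, Txnrd2, Srxn1, Prdx3, Gpx1, Sod3, Gstp1 and Mgst3, and wider ones for 0 against 1.32%. The DKI list was the shortest, and over all genes the median difference was -6.57 points, against -4.85 points in the set. In lists of equal size 10 genes were weaker with DKI, against 21.5% of all genes, and by rank among marked promoters 11, against 28.5%.

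With Cyproheptadine 10 of 38 genes were weaker, against 25.9%, namely Slc7a11, Prdx6, Sod2, Sod3, Cat, Gsta4, Gstp1, Gstt1, Mgst1 and Mgst3. In lists of equal size 5 were weaker, against 17.2%, without Gsta4, Mgst1, Prdx6, Sod2 and Sod3, and by rank among marked promoters 12, against 26.9%. Osgin1 was stronger, 1 of 38 against 3.48%. Slc7a11 was wider, 1 of 38 against 0.978%, and Nfe2l1, Keap1, Osgin1 and Txnrd2 were narrower, 4 of 38 against 16.0%. Nfe2l1 was counted because its peak was split. With peaks within 1 kb merged it was 2752 bp wide with Cyproheptadine and 2809 bp in Q111SST. The median difference in strength was -5.02 points in the set and -3.74 points over all genes.

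With Loxapine and Meclizine fewer genes passed these limits, an order that did not hold in lists of equal size. With Loxapine 0 of 38 genes were stronger against 7.10%, and Ftl1 and Mgst1 were weaker, 2 of 38 against 9.41%. In lists of equal size 8 were weaker, against 22.3%. Sod3 was wider, 1 of 38 against 2.52%, and Txnrd2 narrower, 1 of 38 against 8.51%. By summed width Txnrd2 fell short of 1.5-fold, with 2006 bp with Loxapine and 2760 bp in Q111SST. With Meclizine 0 of 38 were stronger against 4.18%, and Hmox1, Ftl1, Sod2 and Sod3 were weaker, 4 of 38 against 10.0%. By rank among marked promoters 10 were weaker, against 14.0%, with Sod3 no longer among them. By that rank Ftl1 also fell short of 10 points with Loxapine and in Q7SST. Slc7a11 was wider, 1 of 38 against 3.78%, and Txnrd2 narrower, 1 of 38 against 4.63%. The median difference was 0.13 points with Loxapine, against -0.35 points over all genes, and -3.52 points with Meclizine, against -1.54 points.

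**Figure D4:**
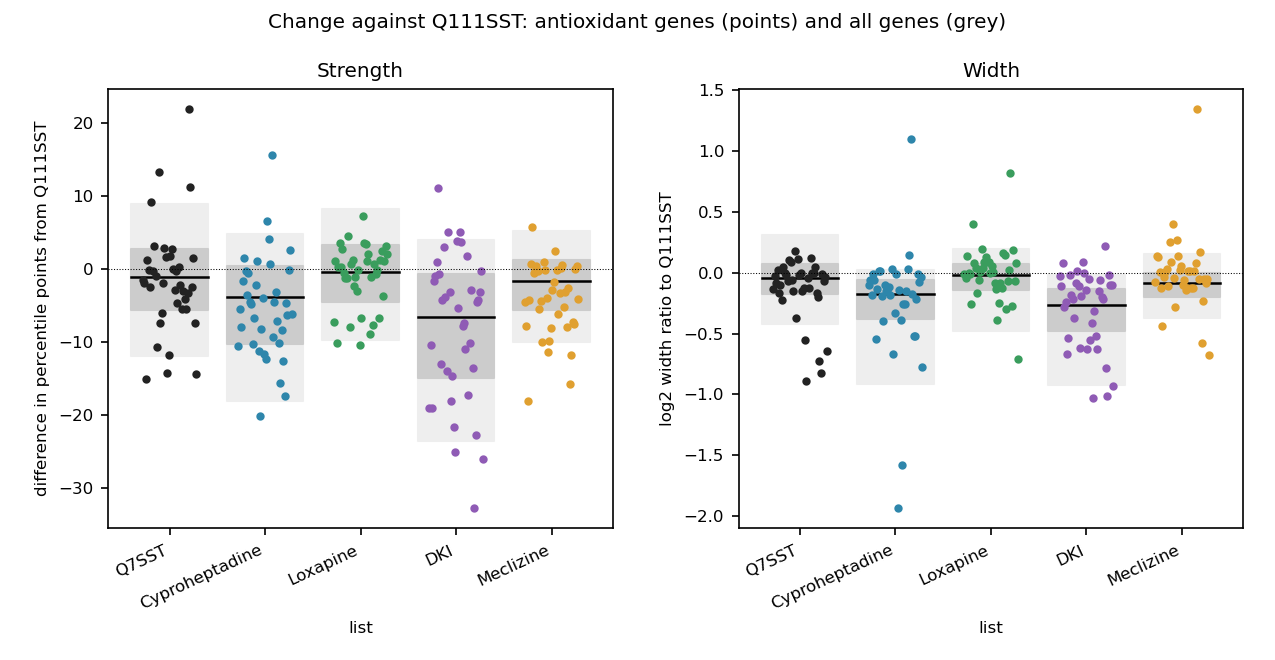
Difference of each list from Q111SST. The left panel gives strength in percentile points and the right panel the log2 ratio of widths. Points are the 38 genes, the black line is the median of all genes marked in both lists, and the dark and light bands span their middle 50% and 80%. The points follow the bands, with medians in strength of -4.85 for the set and -6.57 for all genes with DKI.

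Differences between the lines were also read across all mutant lists, a comparison chosen after the values were seen. Q7SST stood above all 5 mutant lists in strength for 9 of 38 genes, against 21.0% of all genes, namely Hmox1, Gclc, Gsr, Txn2, Srxn1, Prdx2, Sod3, Gstm1 and Gstt1. It stood below them for 5, against 15.4%, namely Nqo1, Txnrd1, Gpx1, Gsta4 and Gsto1. By rank among marked promoters the same 9 stood above, against 24.7%, and 4 below, against 16.7%, without Gpx1. In width Q7SST exceeded all 5 for Keap1, Gclc, Prdx3 and Gstm1, 4 of 38 against 24.2%, and fell short of them for Hmox1, Nqo1 and Cat, 3 of 38 against 9.34%. Gclc and Gstm1 were thus both stronger and wider in the wild-type list, and Nqo1 both weaker and narrower. The margins in width were small at Gclc, 1606 bp in Q7SST and 1592 bp with Meclizine, and at Gstm1, 1488 and 1471 bp. The share of all genes with such joint patterns was not counted.

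Other genes of the pathway were then counted. Of 77 further genes of NRF2 regulation, NADPH supply and glutathione metabolism, 55 (71.4%) were marked in all lists, 13 (16.9%) in none and 9 (11.7%) in some, against 53.5%, 37.0% and 9.52% of all genes. Ggt1, which breaks down glutathione outside the cell, Gstm7 and Gstk1 were marked in Q7SST alone, with percentiles of 76.5, 63.0 and 43.4. Gstp2 and Gstt2 were marked in every mutant list and not in Q7SST, with Gstp2 at 33.5 to 72.6 and Gstt2 at 3.04 to 22.0. Nfe2, a blood cell relative of NRF2, had percentiles of 69.5 in Q7SST, 16.8 in Q111SST, 10.1 with Cyproheptadine and 5.91 with Meclizine, and no peak with Loxapine or DKI. Gsta1, Gsta2 and Aldh3a1 were marked in 4, 5 and 3 lists. Against Q111SST, 3 of the 77 (3.90%) were gained and 2 (2.60%) lost in Q7SST, near the shares of all genes, 3.60% and 2.08%, and 0 were gained with any compound, against 0.269% to 1.02% of all genes. Lost genes numbered 3 of the 77 with DKI, 1 with Meclizine, 1 with Loxapine and 3 with Cyproheptadine, near the shares of all genes, 2.88%, 0.799%, 1.24% and 3.33%.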

How the data were processed

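H3K4me3 ChIP-Seq was made from crosslinked chromatin digested with micrococcal nuclease, with single-end reads of 50 bp. The submitters' processing notes name mm10, Trimmomatic 0.36, Bowtie2, SAMtools 1.3 and MACS2. Their settings, any input control, the handling of reads with several alignments, and whether cultures treated in triplicate were pooled are not given in the sources used here. Each deposited line gives a peak and the authors' score, a whole number of at least 10 whose scale is not stated, so scores were ranked within a list, and were compared between lists only in the alternative with a score threshold. In 0 of 21 chromosomes did a peak pass the end in GRCm38.

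Groups were taken from the labels. Coordinates are counted from 1, and starts are those of all GENCODE vM21 transcripts, with each symbol counted once. Ties took their mean rank. Where a gene had several peaks in its window, the strongest was used. Distances of peak edges are from the start nearest the 5-prime end that the Q111SST peak covered. Where it covered none, they are from the 5-prime end of the gene record. Positions of motif matches are counted from the RefSeq start of the promoter window, which can differ. Scripts ran on Python 3.11.15 with pysam 0.24.0, pandas 2.3.3, matplotlib 3.10.9, numpy 2.4.6 and scipy 1.17.1. The steps were tested on simulated lists. All 40 genes are named by role. Detail was given to the 3 regulators, genes not marked in all lists, the 5 with the largest range of strength, 5 per direction by width ratio between Q7SST and Q111SST, and the 3 widest in Q111SST. Other genes are given in detail where a value stood out, chosen after the values were seen. The members and lists were chosen with earlier results of these data known.

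Alternatives were a peak over the start, a window of 5 kb, scores at or above the pooled median of 47, lists cut to the strongest 30758 peaks, 1 start per gene, rank among marked promoters, merging of peaks within 1 kb, summed width, limits of 5 and 20 points and of 25% and 2-fold, and 500 bases on either side of the start. The basic transcript set, pairs of overlapping peaks and centring on the median of all genes were added after seeing the data. The identity of some genes that share a peak is not reported here.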

Additional observations from a re-analysis of the deposited data

How the results depend on the processing

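No paired analysis was possible because every condition gave a lone list, and for the same reason no replicate could be left out. Depth is unknown, so a missing or split peak may reflect fewer reads. The number of marked genes was 33 to 38 under every alternative, with 33 in each list for 1 start per gene. Against Q111SST, DKI lost 4 genes and Q7SST gained 1 at the pooled median score. Requiring a peak over a start left 36 genes in 4 lists and 35 in Q7SST and Cyproheptadine, each of which thus lost 1 against Q111SST.

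Ranked among marked promoters, the median strength was 56.1 in Q111SST and 54.3 in Q7SST, and 52.9 with DKI, 53.0 with Meclizine, 59.3 with Loxapine and 46.9 with Cyproheptadine. The median difference in strength from Q111SST turned negative for Loxapine, to -0.52 by that rank and to -1.85 in lists of equal size. It was -1.52 and -1.35 for DKI, and -2.46 for Cyproheptadine in lists of equal size. Less the median of all genes it was -1.27 for Cyproheptadine and 1.73 for DKI, and the median log2 width ratio was 0.0228 for Cyproheptadine, 0.0705 for DKI and 0.0448 for Meclizine, each positive. The direction of these medians thus depended on the reference, and the cause was not tested beyond that construction.

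Counts past 10 points also moved. By rank among promoters weaker genes numbered 8 in Q7SST, 11 with DKI, 10 with Meclizine, 6 with Loxapine and 12 with Cyproheptadine, against 17.9%, 28.5%, 14.0%, 18.5% and 26.9% of all genes, so Cyproheptadine and not DKI then had the most. Stronger ones numbered 7, 7, 1, 4 and 4, against 22.4%, 19.0%, 14.8%, 17.4% and 16.3%. In lists of equal size weaker genes numbered 5, 10, 6, 8 and 5, against 14.4%, 21.5%, 11.3%, 22.3% and 17.2%, and centred on all genes 4, 9, 3, 1 and 3, against 11.2%, 21.3%, 7.14%, 8.79% and 16.6%. At 5 points weaker genes numbered 10, 19, 14, 8 and 19, against 27.4%, 55.9%, 27.8%, 22.4% and 44.1%, and at 20 points 0, 5, 0, 0 and 1, against 3.83%, 15.0%, 1.57%, 2.14% and 7.68%. Genes whose Q111SST peak was over 25% wider numbered 6, 13, 3, 2 and 10, against 13.2%, 40.7%, 12.8%, 13.7% and 29.3%, and at 2-fold 0, 2, 0, 0 and 2, against 3.54%, 8.97%, 2.01%, 4.65% and 8.81%. The response element core was found in 14 of the 34 genes (41.2%) with 500 bases on either side, against 34.1% of all genes.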
